A study of Sylvia borin with 20 samples.

Results

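The genes described here are those that write and erase marks on histone tails, taken by symbol from the deposited tables of a whole blood transcriptome of migrating garden warblers (Sylvia borin). All symbols that begin with HDAC and a digit, SIRT1 to SIRT7, KDM1 to KDM8, KMT2, KMT5 or SETD, with EZH1 and EZH2, were taken, which gave 45 of the 20898 symbols listed, or 14 deacetylases, 14 demethylases and 17 methyltransferases. SIRT2, SIRT5, HDAC6, HDAC10 and KMT2B were not among the symbols listed, so nothing is known of their levels here. The 10 birds were wild migrants, taken at a stopover island in spring because their body mass on arrival was low, and then kept in single cages with mealworms and water at will. Each bird was bled on day 1, when lean, and on day 5, when fat, which gave 10 lean and 10 fat libraries, paired by bird through the replicate number. Every bird passed from lean to fat in the same cage time and none was held lean, so refuelling and time in the cage cannot be told apart. Age and sex of the birds are not given in the sources used here.

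DNA in the nucleus is wound on histones, and the tails of these proteins carry acetyl and methyl groups that mark whether a gene is open to transcription. Histone deacetylases (HDAC) remove acetyl groups with zinc, sirtuins (SIRT) remove them at the cost of NAD+ and so are tied to the energy state of the cell, lysine demethylases (KDM) remove methyl groups, and lysine methyltransferases (KMT, SETD, EZH) add them. Bird erythrocytes keep their nucleus, and as they mature their chromatin condenses and most of their genes are shut down. Several members act mainly on other proteins, among them SETD3 on actin, SETD6 on a subunit of NF-kappaB, HDAC8 on cohesin and the mitochondrial sirtuins SIRT3 and SIRT4.

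Levels are given as FPKM, fragments relative to gene length and to all mapped fragments, divided by a median-of-ratio factor for each library and called scaled FPKM below. FPKM is set per length, and levels of different genes are set side by side below, though how well each gene was mapped also enters them. Lean and fat libraries were compared on log2(scaled FPKM + 0.1) with limma, with bird as a term, two-sided and with Benjamini-Hochberg adjustment over all 7800 genes with a mean FPKM of at least 0.1, and a gene was called at an adjusted p under 0.05. The added 0.1 shrinks the fold changes of genes with low values. Of the 45 members 41 passed the filter. SIRT4 was listed at 0 in all 20 libraries, SETD4 was above 0 in 2 lean and 2 fat libraries, SETD7 in 3 lean and 2 fat libraries, and SETD9 in 2 fat libraries only, up to 0.364 scaled FPKM. A gene at 0 may still be expressed, since the reads of a warbler were mapped to the zebra finch genome and how well each gene was mapped was not tested.

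The aligned bases of a library, computed as coverage over FPKM, came to 0.882 to 4.71 gigabases when lean and 1.27 to 3.16 when fat. Lean libraries listed between 4430 and 5289 symbols at an FPKM of at least 1 and fat libraries between 3727 and 4395, with no overlap, so this number and the condition cannot be told apart. Markers of the blood cells moved with the condition. The summed scaled FPKM of 9 erythroid markers, mostly globin, was 123308 to 187950 in lean and 167265 to 301171 in fat libraries, higher when fat in all 10 birds, and 8 of the 9 were higher on average, with the transferrin receptor TFRC and the membrane protein gene EPB42 called. Of 6 thrombocyte markers fitted 5 were called lower in fat birds (ITGA2B, ITGB3, GP1BB, F13A1 and PLEK), with a summed level of 54.8 to 160.2 in lean and 60.6 to 91.8 in fat libraries for the 7 listed. Of 5 monocyte and heterophil markers fitted all were lower on average and CSF1R, CSF3R and MMP9 were called, with sums of 9.88 to 54.4 in lean and 3.70 to 15.03 in fat libraries, while CD14 and LYZ were at 0 in every library. The T cell markers summed to at most 1.46 scaled FPKM in any library, with CD3E at 0 in all 20, and the B cell markers to 4.19 in lean and 2.24 in fat libraries at most, with BTK called lower. In such bulk blood, fewer cells of a type and less RNA per cell cannot be told apart, and the part of these shifts in the results on the members was not tested.

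The members spanned a range from KDM5B, the most abundant by the mean over all 20 libraries, to genes at the edge of detection. KDM5B, which removes methyl groups from lysine 4 of histone H3, had 25.04 to 49.6 scaled FPKM in lean libraries (median 40.4) and 44.3 to 53.7 in fat libraries (median 48.6), and was the first of the members in 11 of 20 libraries. KMT2C followed and led in 6 libraries, and its lean median of 42.0 was above that of KDM5B. KMT2E led in the other 3. In all, 15 members had a mean of at least 10, 13 had a mean of 1 to 10 and 17 were below 1. The 10 most abundant, which were KDM5B, KMT2C, KMT2E, KMT5A, KDM4A, HDAC2, KDM6A, HDAC5, KMT5B and SIRT1, held 68.9 ± 2.42% (SD, n = 10) of the summed member level when lean and 72.3 ± 2.18% (SD, n = 10) when fat, with the larger share when fat in all 10 birds. The sum over the members was 387 ± 34.6 scaled FPKM in lean and 418 ± 40.0 in fat libraries, higher when fat in 8 of 10 birds. The 10 were ranked in these same libraries. Among all genes with a mean of at least 10, 69.3% were higher in fat birds on average. No trait of the members is therefore read from the share or the sum.

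**Figure D1:**
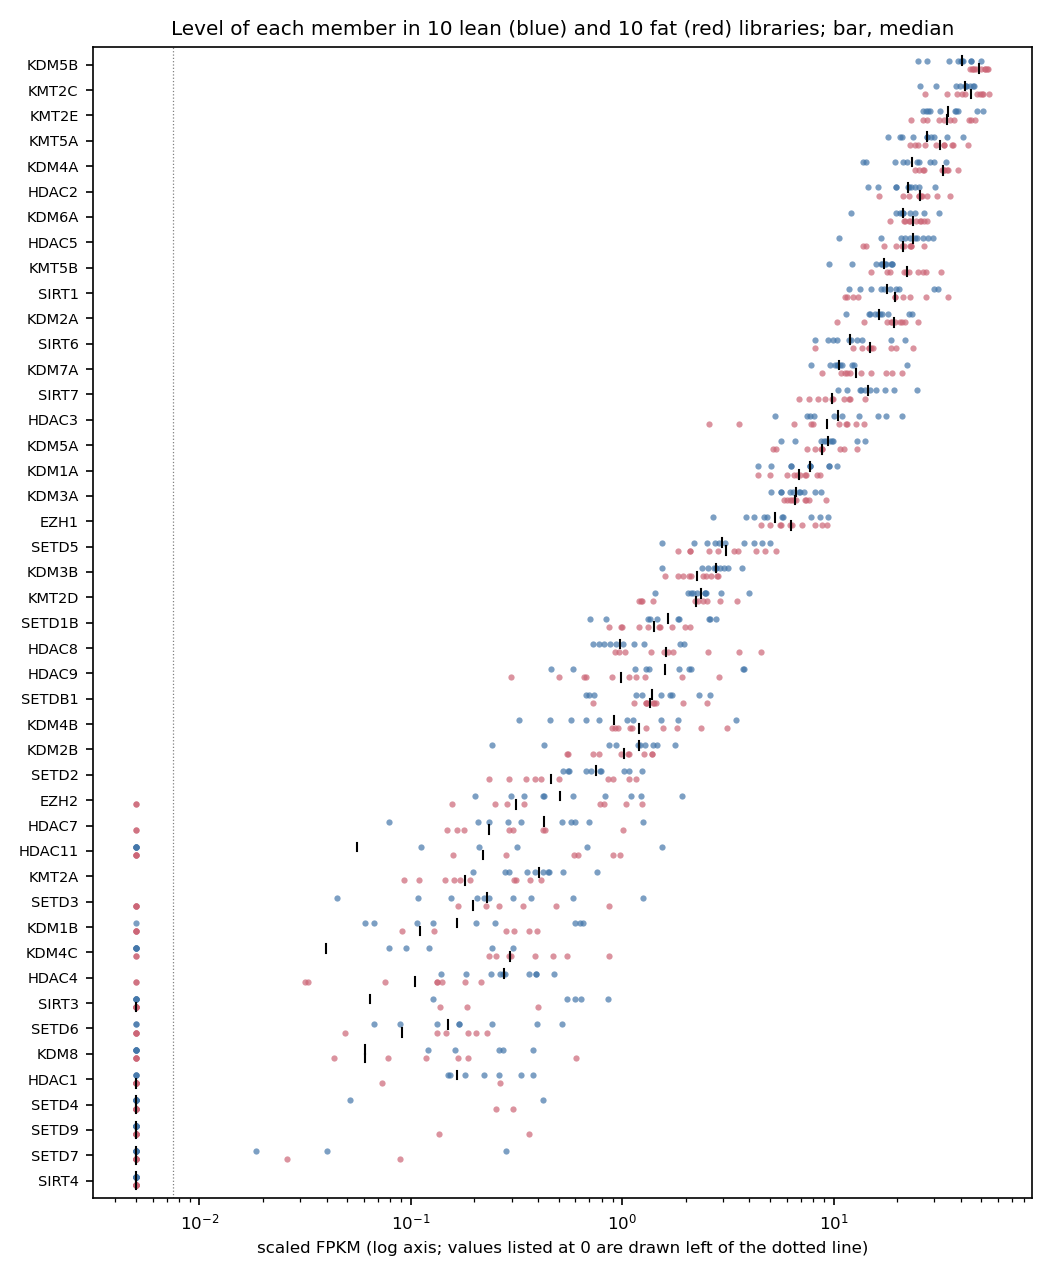
Scaled FPKM (log axis) of the 45 members, ordered by mean, in each of the 10 lean (blue) and 10 fat (red) libraries, with black bars at the medians. The most abundant members, led by KDM5B in the mean over all libraries, lie between 10 and 60 scaled FPKM in most libraries. Points left of the dotted line are values listed at 0, which include all 20 libraries of SIRT4.

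Close relatives differed widely in listed level, and the part of mapping in these gaps was not tested. HDAC2 was above HDAC1 in all 20 libraries, EZH1 above EZH2 in all 20, KDM4A above KDM4B in all 20 and KMT2C above KMT2A in all 20, by a factor of 40.4 to 216 in lean and 104.5 to 372 in fat libraries for the last pair. KMT2C was above its relative KMT2E in only 15 of 20 libraries and SIRT7 above SIRT6 in 9, so the order within these pairs was not the same in every library.

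Of the 41 members fitted, 3 were called higher in fat birds (KMT5B, KDM4A and KDM4C) and 2 lower (SIRT7 and HDAC4). These 5 are 12.2% of the members, against 13.3% of all 7800 genes called. By direction, 7.32% of the members were called higher against 5.18% of all genes, and 4.88% lower against 8.08%. The share called is near that of all genes, so no result about the members as a group is read from it. The median log2 fold change of the members was −0.03, against −0.10 for all genes, and 18 of the 41 members (43.9%) were higher in fat birds on average, against 43.0% of all genes. At an unadjusted p under 0.05 there were 11 members, or 26.8% of those fitted, against 30.1% of all genes. In every member the ranges of lean and fat libraries overlapped, as they did in all but 0.103% of the genes. By enzyme class, 4 of 13 deacetylases fitted were higher in fat birds on average (median log2 fold change −0.45), against 8 of 14 demethylases (0.09) and 6 of 14 methyltransferases (−0.12). The classes were not matched for level. Over all genes 69.3% were higher in fat birds at a mean of at least 10 and 28.1% at a mean below 1. No result about a class is therefore read from these counts.

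The calls depend on the processing. Without bird in the model, 4.76% of all genes were called (1.49% higher and 3.27% lower), and among the members HDAC4 and SIRT7 remained. With FPKM as deposited, which moves the median of all genes by −0.25 on the log2 scale, 19.5% of genes were called (0.962% higher and 18.5% lower). Of the members 6 were then called, KDM4C higher and HDAC3, HDAC4, HDAC5, KMT2A and SIRT7 lower. With TPM as deposited 12 members were called, 11 of them lower, against 25.7% of all genes (0.679% higher and 25.1% lower). KMT5B and KDM4A passed with neither unit. With FPKM as deposited EZH1, HDAC2, KDM2A, KDM3A, KDM6A, KDM7A, KMT2C, KMT5A, SETD5, SETDB1 and SIRT6, none of them called, were lower in fat birds on average instead of higher, and with TPM KDM5B was as well. KDM4A, KDM4C and SIRT7 missed the threshold in limma with depth as a covariate (adjusted p from 0.0582 to 0.0743) or with no filter on low values (0.0517 to 0.0650). Over all genes 615 were called with depth and 596 of 12705 with no filter, against 1034 in the main fit. No member passed in the 8 birds whose sample codes match the study's own table, where 7 had an unadjusted p under 0.05 in limma. Of all 7800 genes 301 passed in these 8 birds. With the number of symbols at FPKM 1 or more as a covariate, chosen after the data were seen, limma called 0 genes and 0 members after adjustment, with 636 genes and 2 members at an unadjusted p under 0.05. This number did not overlap between lean and fat libraries, so that fit cannot separate it from the condition.

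**Figure D2:**
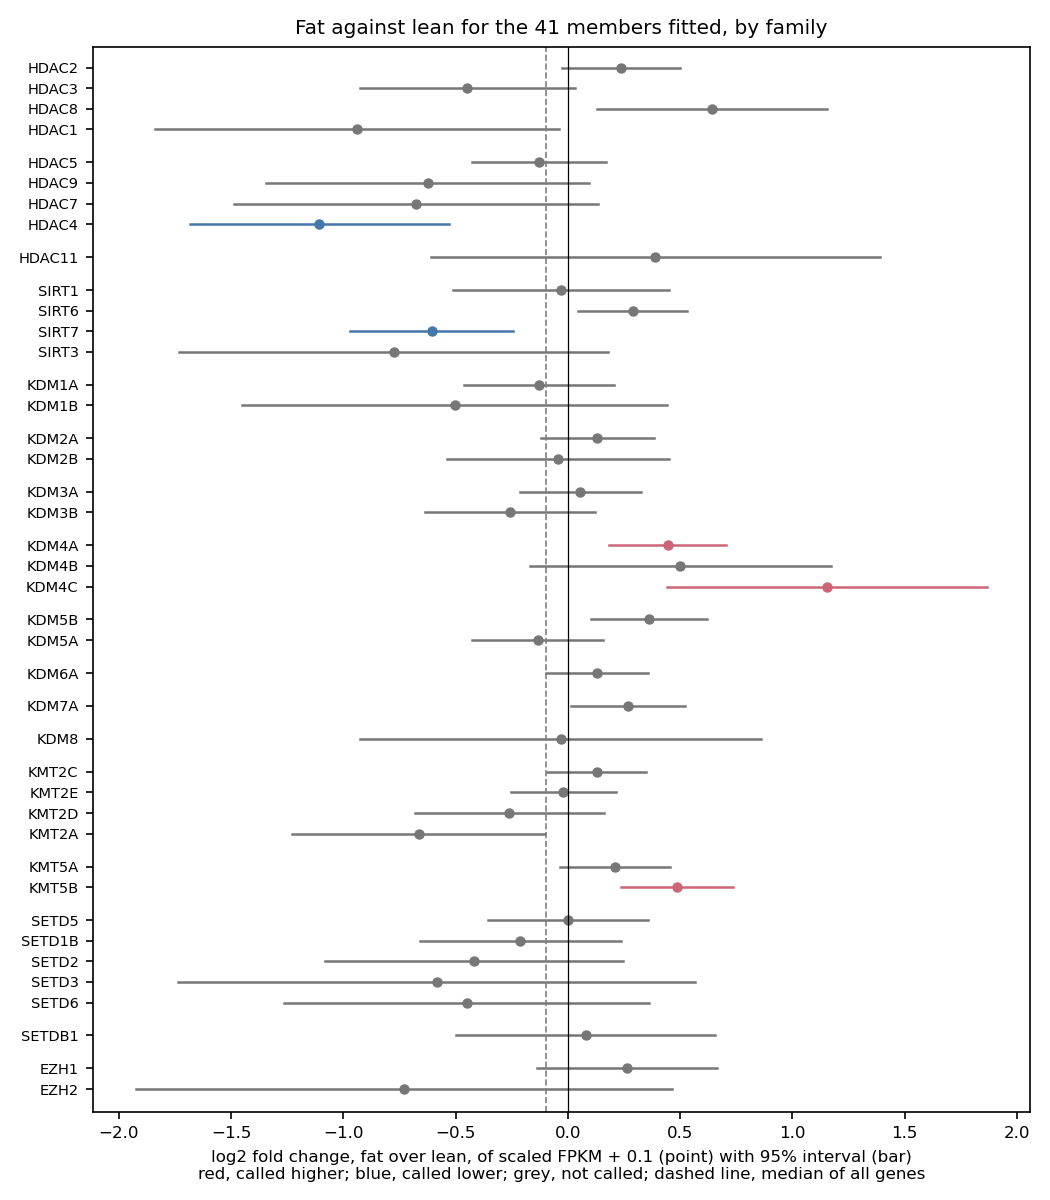
Log2 fold change (fat over lean, points) with its 95% interval from limma with bird (bars) for the 41 members fitted, grouped by family and ordered by level within a family. KMT5B, KDM4A and KDM4C (red) were called higher in fat birds, SIRT7 and HDAC4 (blue) lower, and the dashed line marks the median of all genes at −0.10.

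The share of members higher in fat birds differed with their level. Of the 15 members with a mean of at least 10, 10 were higher in fat birds on average (66.7%), of the 13 between 1 and 10 there were 6, and of the 13 fitted members below 1 there were 2 (15.4%), with medians of 0.13, −0.04 and −0.58. The same gradient ran through all genes, of which 69.3% were higher in the first class, 44.8% in the second and 28.1% in the third, with medians of 0.17, −0.07 and −0.36. The classes were set after the values were seen, and the gradient is given as a description.

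Class I deacetylases are the catalytic subunits of the large corepressor complexes. None of the 4 was called. HDAC2, which serves the Sin3, NuRD and CoREST complexes, was the most abundant deacetylase by the mean over all 20 libraries. It had 14.5 to 30.1 scaled FPKM in lean libraries (median 22.6, against 23.7 for HDAC5) and 16.4 to 35.6 in fat libraries (median 25.6). Levels were higher when fat in 8 of 10 birds, with a log2 fold change of 0.24 (95% interval −0.03 to 0.50, adjusted p = 0.213 from limma). HDAC1, its partner in the same complexes, lay far below it. HDAC1 ranged from 0 to 0.380 in lean libraries (median 0.166) and was listed at 0 in 8 fat libraries, with 0.265 as the highest fat value, an adjusted p of 0.149 from limma, and 0.0416 without bird 4. HDAC3, the enzyme of the NCoR complexes, had 5.28 to 21.1 when lean (median 10.5) and 2.57 to 13.97 when fat (median 9.31), lower when fat in 7 of 10 birds (log2 fold change −0.45, 95% interval −0.92 to 0.03, adjusted p = 0.192 from limma). It was called lower with FPKM as deposited (adjusted p = 0.0382). HDAC8 had 0.725 to 1.97 in lean (median 0.9747) and 0.925 to 4.55 in fat libraries (median 1.60), higher when fat in 8 of 10 birds, with a log2 fold change of 0.64 (adjusted p = 0.0896 from limma). It was called higher with depth as a covariate (adjusted p = 0.0494) and with quantile normalization (adjusted p = 0.0403). The HDAC2 to HDAC3 ratio within a library, which a single scaling factor per library leaves as it is, had a median of 1.94 in lean and 2.63 in fat libraries, higher when fat in 7 birds, and the ranges overlapped.

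Class IIa deacetylases have weak activity of their own and shuttle between nucleus and cytoplasm in response to signals, where they hold MEF2 factors in check. All 4 were lower in fat birds on average and HDAC4 was called. HDAC4 had 0.139 to 0.475 scaled FPKM in lean libraries (median 0.276) and 0 to 0.215 in fat libraries (median 0.104). Its fat value was the lower one in all 10 birds, 8 lean libraries lay above every fat library, and 2 fat libraries (birds 6 and 8) were listed at 0. HDAC4 fell by 1.11 on the log2 scale (standard error 0.27, adjusted p = 0.0190 from limma), and it stayed called with each bird left out in turn (adjusted p from 0.0203 to 0.0468). It was not called with quantile normalization (adjusted p = 0.185). With 0.01 added instead of 0.1 the log2 fold change of HDAC4 was −2.12 (adjusted p = 0.0347 from limma), and with 1 added −0.25 (adjusted p = 0.0295). The level is low in every library, and no counting error can be given since the tables hold no read counts. HDAC5 was the abundant member of the class, about as high as HDAC2. Its lean libraries held 10.6 to 29.5 (median 23.7) and its fat ones 13.8 to 26.7 (median 21.3), with a log2 fold change of −0.13 (95% interval −0.43 to 0.17, adjusted p = 0.568 from limma). HDAC4 was 0.0145 times HDAC5 at the median in lean and 0.00556 times in fat libraries, lower when fat in all 10 birds. The ratio uses the HDAC4 values again and sets a rare gene against an abundant one. For all genes, the median log2 fold change was −0.36 at a mean below 1 and 0.17 at a mean of at least 10. HDAC9 had 0.461 to 3.78 when lean and 0.297 to 2.86 when fat (log2 fold change −0.63, adjusted p = 0.225 from limma), and passed without bird 9 (adjusted p = 0.0434). HDAC7 reached 1.25 in lean and 1.00 in fat libraries and was lower when fat in 8 birds, without a call.

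HDAC11 is the sole class IV enzyme and removes fatty acyl groups rather than acetyl groups. It was listed at 0 in 5 lean and 4 fat libraries and reached 1.55 and 0.979, and its wide interval of −0.61 to 1.39 (adjusted p = 0.610 from limma) spans 0.

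Of the 5 sirtuins listed, the nuclear SIRT1, SIRT6 and SIRT7 were abundant. The mitochondrial SIRT3 and SIRT4 were at 0 in most libraries. SIRT2 and the mitochondrial SIRT5 were not listed. SIRT7, which sits in the nucleolus and acts at the ribosomal RNA genes, was the one called, and fell in fat birds. It had 10.5 to 24.9 scaled FPKM in lean libraries (median 14.5) and 6.86 to 14.1 in fat libraries (median 9.86). It was lower when fat in 9 of 10 birds, all but bird 6, with 5 lean libraries above every fat one and 6 fat libraries below every lean one. The log2 fold change was −0.61 (standard error 0.17, adjusted p = 0.0317 from limma with bird, 0.0382 without bird). Without birds 2, 3, 7, 8 or 10, left out one at a time, the adjusted p lay between 0.0507 and 0.0731, and it passed without any of the other 5. SIRT7 shares 34 bases at one end with PCYT2 on the same strand, a gene with a log2 fold change of 0.37 (adjusted p = 0.0780 from limma).

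SIRT6, a deacetylase that limits glycolytic genes and protects telomeres, had 8.21 to 21.8 in lean libraries (median 11.96) and 8.14 to 23.8 in fat libraries (median 14.9). Levels were higher when fat in 9 of 10 birds, all but bird 9, though by little, with a log2 fold change of 0.29 (95% interval 0.05 to 0.53, adjusted p = 0.105 from limma, and 0.0443 without bird 9). The 2 genes differed in direction on average with scaled FPKM, but not with FPKM or TPM as deposited. The SIRT7 to SIRT6 ratio within a library, which uses the SIRT7 values again, had a median of 1.17 in lean (range 0.727 to 3.04) and 0.632 in fat libraries (0.454 to 1.22), lower when fat in 9 of 10 birds. SIRT1, the best known sensor of energy state among them, had 11.8 to 31.1 in lean (median 17.9) and 11.3 to 34.9 in fat libraries (median 19.5). The fat value was the higher one in 5 birds and the lower one in 5, with a log2 fold change of −0.03 (95% interval −0.51 to 0.45, adjusted p = 0.944 from limma). SIRT3, the main mitochondrial deacetylase, was listed above 0 in 5 lean libraries, where it reached 0.859, and in 3 fat ones, where it reached 0.398 (adjusted p = 0.258 from limma).

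**Figure D3:**
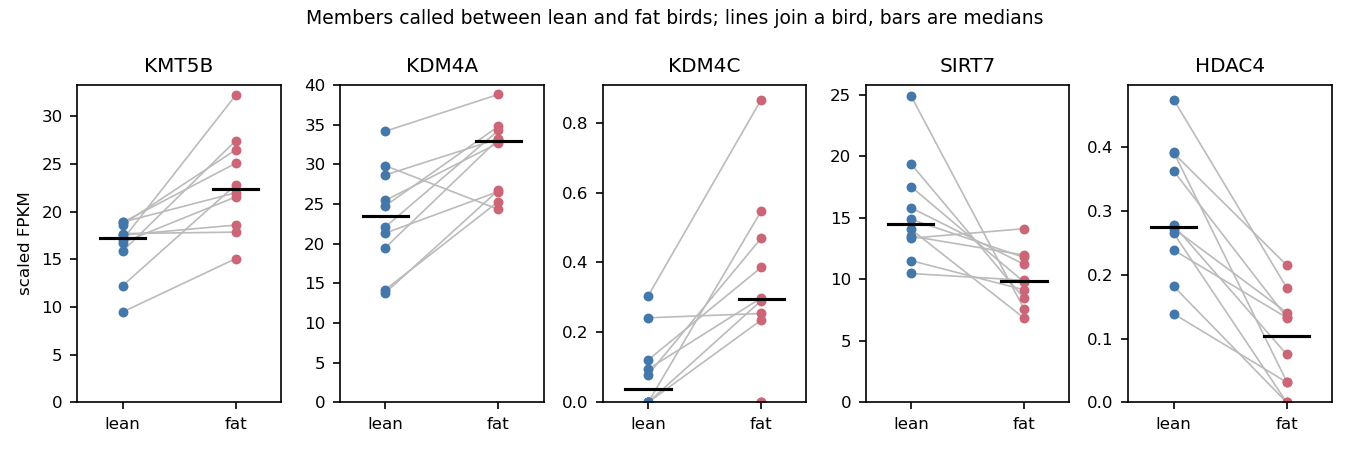
Scaled FPKM in lean and fat libraries of the 5 members called, with a line for each of the 10 birds and black bars at the medians. KMT5B was higher when fat in all 10 birds and HDAC4 lower in all 10, while KDM4A and SIRT7 each had 1 bird moving the other way and KDM4C was at 0 in both libraries of 2 birds.

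Of the 14 demethylases 2 were called (14.3%), against 13.3% of all genes called in either direction. Both belong to the KDM4 family, which removes methyl groups from lysines 9 and 36 of histone H3, and no result about the family is read from this. KDM4A rose in fat birds, from 13.8 to 34.2 scaled FPKM in lean libraries (median 23.5) to 24.3 to 38.8 in fat libraries (median 33.0). Levels were higher when fat in 9 of 10 birds, all but bird 9, and 5 lean libraries lay below every fat one. The log2 fold change was 0.44, or 1.36-fold (standard error 0.12, adjusted p = 0.0310 from limma with bird, 0.0979 without bird). It stayed above 0 under every scaling, at 0.14 with FPKM as deposited and 0.04 with TPM, but was not called in either or with quantile normalization, and with the number of symbols as a covariate it was −0.10. Without birds 1, 2, 6, 7, 8 or 10 the adjusted p lay between 0.0507 and 0.0754. KDM4C was rare. Only 5 lean libraries held any, at most 0.304, against 8 fat ones, at most 0.866, with the same value of 0 in both libraries of birds 1 and 3 and the higher value when fat in the other 8 birds. Its log2 fold change was 1.15 (standard error 0.33, adjusted p = 0.0366 from limma with bird, 0.108 without bird), and the adjusted p lay between 0.0534 and 0.0754 without birds 2, 4, 5, 6, 7, 8 or 9. With 0.01 added instead of 0.1 the log2 fold change of KDM4C was 2.245, without a call (adjusted p = 0.06345 from limma). With 1 added it was 0.283 (adjusted p = 0.0406). KDM4B, with medians of 0.912 and 1.204, was higher when fat in 7 birds without a call (log2 fold change 0.50, 95% interval −0.17 to 1.17, adjusted p = 0.297 from limma). The KDM4A to KDM4B ratio had a median of 23.7 in lean and 23.6 in fat libraries, higher when fat in 5 birds and lower in 5.

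In the KDM5 family, the abundant KDM5B was just short of a call. Levels were higher when fat in 9 of 10 birds and 7 lean libraries lay below every fat one, with a log2 fold change of 0.36 (95% interval 0.10 to 0.62, adjusted p = 0.0601 from limma). It passed among the genes with a mean of at least 1 and without bird 9 (adjusted p = 0.0384). KDM5A, which removes the same mark, had 5.64 to 14.05 in lean and 5.18 to 12.95 in fat libraries, lower when fat in 8 of 10 birds (log2 fold change −0.13, adjusted p = 0.537 from limma). The KDM5B to KDM5A ratio had a median of 4.45 in lean and 5.73 in fat libraries and was higher when fat in 9 of 10 birds, with ranges that overlapped.

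None of the other demethylases was called. KDM6A, which clears the mark that EZH1 and EZH2 set, had medians of 21.2 in lean and 23.7 in fat libraries (log2 fold change 0.13, 95% interval −0.10 to 0.36). KDM7A, which acts on lysines 9 and 27 of histone H3, had 7.84 to 22.3 in lean (median 10.6) and 8.86 to 21.1 in fat libraries (median 12.7), higher when fat in 8 birds (log2 fold change 0.27, adjusted p = 0.146 from limma). KDM2A, which binds unmethylated CpG islands, had medians of 16.4 and 19.2, against 1.199 and 1.02 for its relative KDM2B. KDM1A, the flavin enzyme also named LSD1 that works within CoREST and is needed for blood cell maturation in mice, had medians of 7.74 and 6.83 (log2 fold change −0.13, 95% interval −0.46 to 0.21), and its relative KDM1B had 0.166 and 0.110. KDM3A and KDM3B, which act on lysine 9 of histone H3, had medians of 6.64 and 6.57 and of 2.78 and 2.27. KDM8, whose role as a demethylase is disputed, was listed at 0 in 5 lean and 4 fat libraries.

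Of the 14 methyltransferases fitted only KMT5B was called (7.14%, against 13.3% of all genes). KMT5B adds further methyl groups to lysine 20 of histone H4, after KMT5A has set the first. KMT5B rose from 9.47 to 18.9 scaled FPKM in lean libraries (median 17.3) to 15.1 to 32.2 in fat libraries (median 22.4). It was higher when fat in all 10 birds, though hardly in birds 3 and 6 (log2 differences of 0.01 and 0.08). In all, 7 fat libraries lay above every lean one, but the ranges overlapped. The log2 fold change was 0.48, or 1.399-fold (standard error 0.12, adjusted p = 0.0180 from limma with bird, 0.0657 without bird). It stayed called with each bird left out in turn (adjusted p from 0.0179 to 0.0450) and was above 0 under every scaling, though not called with FPKM as deposited (log2 fold change 0.18, adjusted p = 0.314) or TPM (0.08, adjusted p = 0.636). A gene without a name on the opposite strand overlaps most of it, with at most 0.932 scaled FPKM in any library. That gene was also higher in fat birds on average, without a call (log2 fold change 0.87, adjusted p = 0.152 from limma). The part of this overlap in the KMT5B values was not tested. The libraries were stranded, and whether the quantification used the strand is not stated in the methods. KMT5A was the more abundant of the pair in 18 of 20 libraries, with 18.1 to 41.1 in lean (median 27.7) and 23.03 to 43.4 in fat libraries (median 32.0). Levels were higher when fat in 8 birds (log2 fold change 0.21, 95% interval −0.03 to 0.45, adjusted p = 0.228 from limma). The KMT5B to KMT5A ratio, which uses the KMT5B values again, had a median of 0.644 in lean and 0.740 in fat libraries, higher when fat in 8 of 10 birds.

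**Figure D4:**
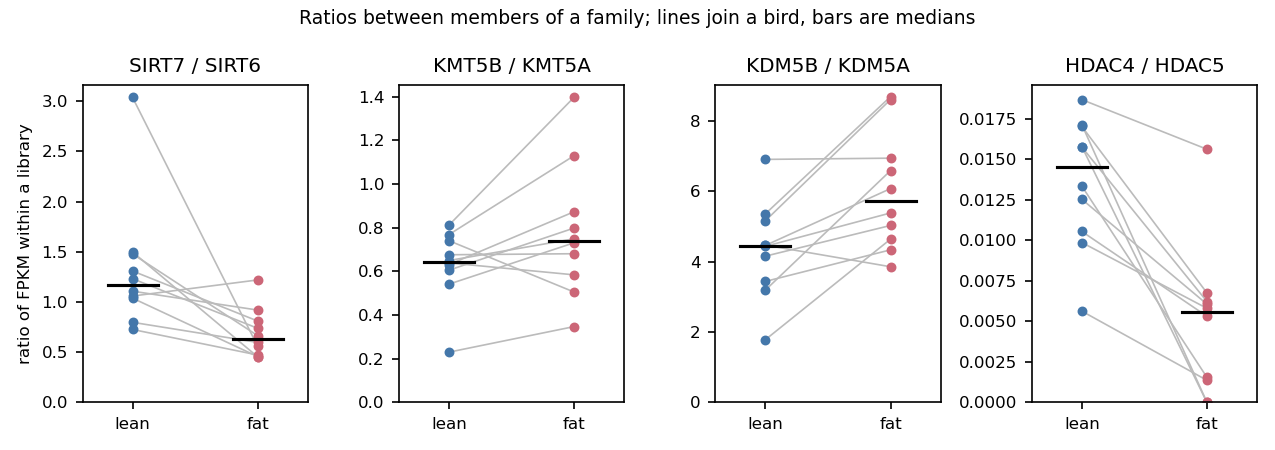
Ratio of FPKM between members of a family within each library, lean and fat, with a line for each of the 10 birds and black bars at the medians. SIRT7 to SIRT6 was lower when fat in 9 birds and HDAC4 to HDAC5 in all 10, and KMT5B to KMT5A was higher in 8 and KDM5B to KDM5A in 9. HDAC4 is rare and HDAC5 abundant, and over all genes rare ones tended to be lower in fat birds. The ratios are unaffected by a single scaling factor per library, though not by quantile normalization. Those of SIRT7, KMT5B and HDAC4 use the values of called members again, so they are no independent support for the calls. Among pairs not drawn, KDM4A to KDM4B and SIRT6 to SIRT1 were each higher when fat in 5 birds and lower in 5. KMT2C to KMT2E was higher in 6 and lower in 4, while SIRT7 to SIRT1 was lower in 8.

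The KMT2 family places methyl groups on lysine 4 of histone H3, KMT2C and KMT2D at enhancers, while KMT2E has no such activity that is known with certainty. KMT2C had 25.8 to 46.4 in lean (median 42.0) and 27.1 to 54.5 in fat libraries (median 44.7), and KMT2E 26.5 to 51.0 (median 34.7) and 23.3 to 46.8 (median 34.4). Neither was called, and the intervals of their log2 fold changes were −0.09 to 0.35 for KMT2C and −0.26 to 0.21 for KMT2E. KMT2A, which maintains HOX genes and was rare here, had 0.196 to 0.758 in lean (median 0.405) and 0.0931 to 0.411 in fat libraries (median 0.180), lower when fat in all 10 birds. It missed the threshold (log2 fold change −0.66, 95% interval −1.23 to −0.10, adjusted p = 0.107 from limma) and was called with FPKM as deposited (adjusted p = 0.0406). The KMT2C to KMT2A ratio, which also sets an abundant gene against a rare one, was higher when fat in 9 of 10 birds. KMT2D was not called, with a log2 fold change of −0.26 (95% interval −0.68 to 0.16, adjusted p = 0.393 from limma). In KMT2D 4 fat libraries lay below every lean one, while 9 lean libraries lay within the fat range.

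Of the 8 SETD genes 5 were fitted and none was called. SETD5 and SETD1B, the latter a methyltransferase of lysine 4 in the COMPASS complex, were the most abundant, with medians of 2.96 in lean and 3.11 in fat libraries for SETD5 and 1.65 and 1.41 for SETD1B. SETD2, which marks lysine 36 along transcribed genes, had 0.524 to 1.24 in lean and 0.235 to 1.17 in fat libraries, and 6 fat libraries lay below every lean one, but the interval of its log2 fold change ran from −1.08 to 0.24. SETD3 and SETD6 lay below SETD2, with log2 fold changes of −0.58 and −0.45 (adjusted p = 0.491 and 0.449 from limma). SETDB1, which silences repeats through lysine 9, had medians of 1.38 and 1.36.

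EZH1 and EZH2 are alternative catalytic subunits of the Polycomb complex PRC2, which represses genes through lysine 27 of histone H3. In mice and humans EZH2 is used mainly by dividing cells and EZH1 by cells that have stopped dividing. EZH1 was the more abundant here in every library, with 2.68 to 9.44 in lean (median 5.28) and 4.55 to 9.32 in fat libraries (median 6.28). EZH2 had 0.201 to 1.92 in lean (median 0.507) and 0 to 1.23 in fat libraries (median 0.314), with 2 fat libraries at 0. Neither was called (log2 fold changes 0.26 and −0.73, adjusted p = 0.361 and 0.400 from limma). The interval of EZH2 was wide, −1.92 to 0.46.

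Taken bird by bird, the median log2 difference of the members (fat minus lean) lay between −0.25 in bird 9 and 0.08 in bird 6, and between 15 and 23 of the 41 members were higher when fat. In bird 9 KDM4A, KDM5B, SIRT6, KDM6A, EZH1 and KMT5A, each higher when fat in at least 8 birds, were lower when fat. Without bird 9, 7 members were called, with HDAC9, KDM5B and SIRT6 added to KMT5B, KDM4A, SIRT7 and HDAC4, and without KDM4C. Without bird 2, 7 or 8 only HDAC4 and KMT5B were called. The count over all genes moved as well, from 1034 with all 10 birds to 1133 without bird 9. It was 632 without bird 2, 771 without bird 7 and 735 without bird 8.

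**Figure D5:**
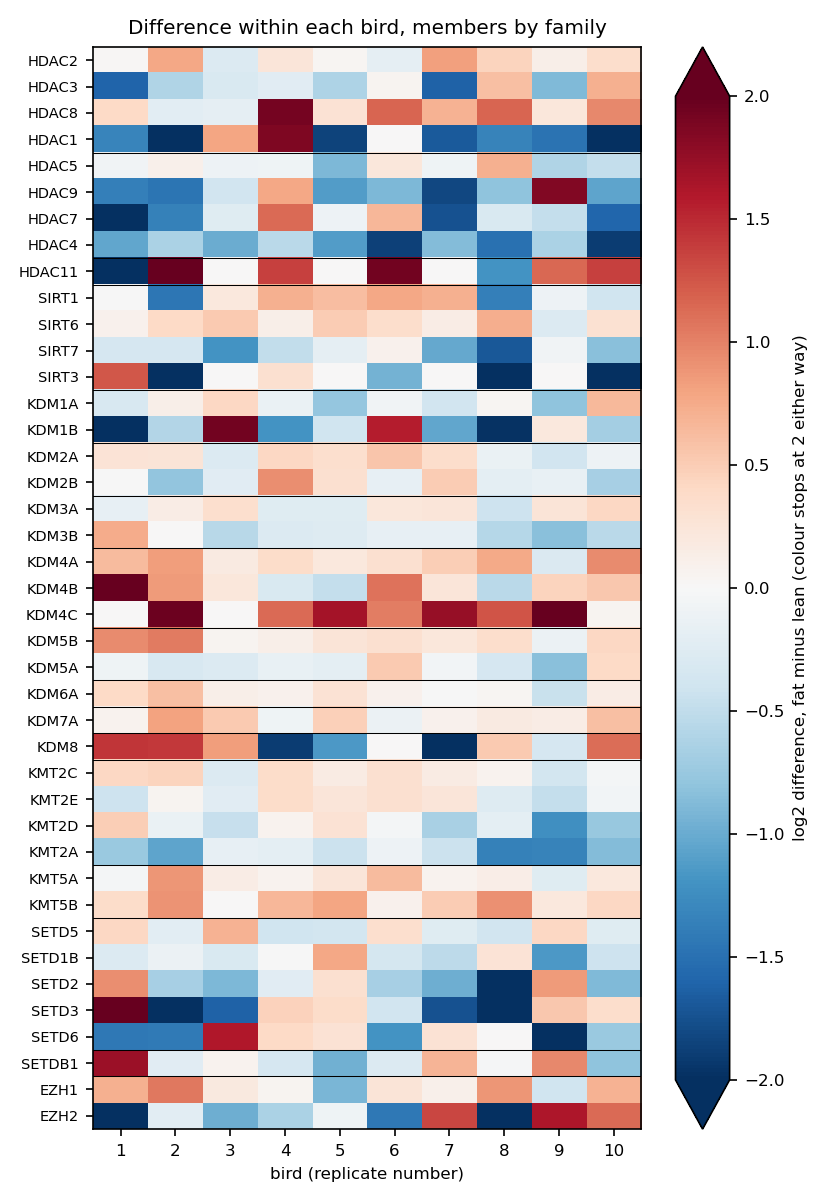
Log2 difference (fat minus lean) of each of the 41 members fitted, rows, in each of the 10 birds, columns, with red for higher when fat and blue for lower and families divided by lines. KMT5B is above 0 in every bird and HDAC4 and KMT2A below 0 in every bird, while the rare genes such as SETD3, EZH2 and HDAC1 swing both ways. Some of these differences are too small to show as a colour, with KMT5B at 0.01 in bird 3 and 0.08 in bird 6, and KMT2A at −0.095 in bird 6.

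Whether a bird kept its rank between the days was tested by the correlation of lean and fat values over the 10 birds, for all 7800 genes. SIRT6 had the highest coefficients of the members, with Pearson r = 0.78 (permutation p = 0.00732, adjusted 0.151) and Spearman rho = 0.90 (permutation p = 0.00073, adjusted 0.141), and r = 0.53 without the 2 birds farthest from the median. Neither passed after Benjamini-Hochberg adjustment over all genes. By the permutation tests 0 of 41 members and 4 of 7800 genes passed for both coefficients, and 2 members (4.88%) and 893 genes (11.4%) had both unadjusted p under 0.05. The median r was 0.30 for the members and 0.31 for all genes.

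Partners of these enzymes in their complexes, and related writers, erasers and readers, were read from 7 lists with 91 genes fitted. Of these 4 were called higher and 5 lower, or 9.89% against 13.3% of all genes. JARID2, which guides PRC2 to its targets, was the one of 7 PRC2 partners called and rose in all 10 birds, from 9.59 to 22.7 scaled FPKM in lean (median 15.1) to 17.5 to 29.7 in fat libraries (median 25.6), a log2 difference of 0.58 with a standard error of 0.12 (adjusted p = 0.0121 from limma with bird and 0.0452 without). None of 8 COMPASS partners passed, and WDR5, their shared scaffold, came nearest (adjusted p = 0.119). Among 21 subunits of deacetylase complexes 2 were called higher and 1 lower. SUDS3, which tethers HDAC1 and HDAC2 to Sin3, had medians of 75.8 in lean and 105.3 in fat libraries (log2 fold change 0.57, adjusted p = 0.0154 from limma), and CHD3, the remodeler of a NuRD complex, fell from a median of 11.2 to 4.40 (log2 fold change −1.28, adjusted p = 0.0156), lower when fat in 9 birds. Without bird in the model neither passed (adjusted p = 0.112 and 0.0614). None of 11 acetyltransferases, which oppose the deacetylases, was called, with KAT8 nearest (adjusted p = 0.0699).

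Among 9 other demethylases and related oxygenases 1 was called higher and 1 lower. JMJD6, a hydroxylase whose demethylase activity is disputed, rose in all 10 birds from medians of 3.08 to 5.55 (log2 fold change 0.94, adjusted p = 0.0325 from limma), and TET3, which oxidizes methylated DNA, fell in all 10 from 0.206 to 0.0531 (log2 fold change −0.87, adjusted p = 0.0475). Of 14 other methyltransferases SMYD2 was called, with a log2 fold change of −1.37 (adjusted p = 0.0364) and a median of 0 in fat libraries. Of 21 readers 2 were called, both lower, ING3 (log2 fold change −0.62, adjusted p = 0.0208 from limma) and BRD8 (−0.83, adjusted p = 0.0401), which are both subunits of the NuA4 acetyltransferase complex. These are 9.52% of the readers, against 8.08% of all genes called lower. The share called was 22.2% for the other demethylases and 7.14% for the other methyltransferases, against 13.3% of all genes. The lists are small, and no result about a list or a complex is read from them. Without bird in the model JMJD6 and ING3 passed (adjusted p = 0.0467 and 0.0347), and TET3, SMYD2 and BRD8 did not (adjusted p = 0.107, 0.106 and 0.106).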

How the data were processed

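Whole blood RNA of 10 birds was sequenced on day 1 and day 5. The authors trimmed the reads, mapped them with STAR to the zebra finch genome and quantified genes with StringTie, whose versions are not given in the sources used here. The deposited tables hold coverage (mean depth per base), FPKM and TPM per gene, not normalized between libraries, and no read counts. The authors compared conditions with DESeq2 on counts, which is not possible on these values.

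FPKM was summed per symbol and divided by median-of-ratio factors over the 4487 symbols above 0 in every library. Genes with a mean FPKM of at least 0.1 were fitted as log2(FPKM + 0.1) with limma 3.58.1 in R 4.3.3 (trend, bird as a term, fat minus lean). Tables and figures were made in Python 3.11.15 (matplotlib 3.10.9, scipy 1.17.1, numpy 2.4.6, pandas 2.3.3). The fit was tested on simulated data with 50 changed genes at each size. It called 12% of log2 changes of 0.5, 38% of 1, 88% of 2 and 96% of 3, with 7 false calls in a set of 7800 genes. The other genes were simulated without change, whereas the fit to the real data called 1034 genes. The shares called depend on how many genes change, so they may differ in the real data. A member without a call may still have changed.

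Pairing rests on the study design, with 2 samples of each bird, and on the replicate numbers. After removal of the condition means, libraries of a number had r of 0.152 to 0.382 (median 0.236), against a median of −0.0245 between numbers. Each of the 20 libraries correlated best with the library of the same number in the other condition. The sample codes of the lean libraries of birds 8 and 10 differ from the study's sample table, and both were paired by the labels.

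Members and lists were chosen with earlier results of these data known. Named members are those with an unadjusted p under 0.05, the 2 most abundant of each family, those listed at 0 in at least 10 libraries, and HDAC1 to HDAC3, SIRT1, EZH1, EZH2 and KDM1A. HDAC7, KMT2D, SETD2, SETD3 and SETD6 were named after their values were seen. From each partner list the 2 called genes with the smallest p, or the nearest to a call, are named. Rank correlations used 100000 permutations. As alternatives the pseudocount was set to 0.01 or 1, the filter was dropped or raised to a mean of 1, the scaling was left out for FPKM and TPM or replaced by quantile normalization, and the model was run with no bird term, quality weights, depth and number of symbols as covariates, 8 birds, and each bird left out.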

Additional observations from a re-analysis of the deposited data

Results flagged for a closer look

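Among 72 groups of 10 libraries (36 members, lean and fat), 4 held a library far from the others on the log2 scale, where chance gives about 1 in 20. The fat library of bird 4 had 0.265 scaled FPKM of HDAC1, against 0.0733 for the next and 0 in the other 8. The lean library of bird 1 had the lowest KDM3B, 1.54 against 2.38 for the next. The lean library of bird 2 had the lowest KDM6A, 12.1 against 19.8. The lean library of bird 4 had the highest KDM7A, 22.3 against 12.4 for the next, and the fat library of the same bird was also high. No group of 10 was marked by more than 1 library.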

How the results depend on the processing

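With bird in the model 1034 genes were called (5.18% of those fitted higher and 8.08% lower in fat birds). The count was 371 (1.49% and 3.27%) without the replicate block, 301 (1.65% and 2.21%) with the 8 birds of matching codes, 615 (3.17% and 4.72%) with depth as a covariate, 596 (1.98% and 2.72%) without a filter, 666 (4.49% lower) with quantile normalization, 2007 (0.679% and 25.1%) with TPM and 1519 (0.962% and 18.5%) with FPKM as deposited, and 0 (0% and 0%) with the number of symbols as a covariate, where 636 genes had an unadjusted p under 0.05 in limma. Leaving out each bird gave 554 to 1133 genes, 2.79% to 5.45% higher and 4.31% to 9.08% lower. The 5 members called (3 higher, 2 lower) became 2 (0 higher) without the replicate block, 0 (0 and 0) in limma with 8 birds, where 7 had an unadjusted p under 0.05, 12 (1 and 11) with TPM and 1 higher and 5 lower with FPKM as deposited, 3 (1 lower) with depth, 2 (1 and 1) without a filter, 0 (0 and 0) with the number of symbols, and 1 lower with a mean of at least 1 or quantile normalization. Leaving out each bird gave 2 to 7 members, 1 to 4 higher and 1 to 3 lower. The median over the members, −0.03, was −0.33 with FPKM and −0.43 with TPM as deposited, which move the median of all genes by −0.25 and −0.33, and lay between −0.11 and −0.02 with a bird left out. The calls lower in fat birds were 60.9% of all calls, 52.6% with quantile normalization, and 95.1% with FPKM and 97.4% with TPM as deposited. The number of symbols, a covariate added after seeing the data, cannot be told apart from the condition. With it KDM4A had a log2 fold change of −0.10. Of the other values of named members, 649 kept direction and side of the threshold, which include those of members not called in the main fit. Only the 5 members called could lose a call, and 43 of their values did, while 18 values of other members gained one. HDAC4 stayed called in 8 of 11 settings and in 10 of 10 fits with a bird left out. KMT5B did so in 7 of 12 and 10 of 10, SIRT7 in 8 of 12 and 5 of 10. KDM4C did so in 5 of 11 and 3 of 10, and KDM4A in 4 of 12 and 4 of 10. Of the values with no call, 51 changed sign by less than the spread between birds and 21 by more. The cause was not tested for any of these. The depth behind a single gene is unknown, and no counting error can be given.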
